A study of Mus musculus with 2 samples.

Results

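The Hox genes encode homeodomain transcription factors that give cells along the body axis and along developing organs their positional identity. In the mouse they lie in 4 clusters, HoxA to HoxD, and are numbered by position from 1 at the anterior end to 13 at the posterior end, so that genes with the same number in different clusters are paralogues. Genes at low positions are as a rule switched on earlier and further anterior than those at high positions. In the urinary tract, genes of paralogue group 11 are known to be required for the outgrowth of the ureteric bud and for the nephron progenitors of the kidney, and group 13 genes for the cloaca and the external genitalia. Here, all array probes whose gene name is Hoxa, Hoxb, Hoxc or Hoxd followed by a number were taken, whatever their values. This gave 45 probes for 39 genes, out of 29982 genes with values on the array. The Hox genes comprised 11 of HoxA, 10 of HoxB, 9 of HoxC and 9 of HoxD. A single probe was present for 33 genes, and 6 genes, among them Hoxa3, Hoxa9, Hoxa13, Hoxb3 and Hoxd11, had 2 probes.

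The RNA came from ureters of NMRI mouse embryos at E16.5, pooled by sex with at least 9 ureters per pool. Mutants (Pparg-cKO, Pax2-cre/+; Pparg(fl/fl)) were compared with controls of the genotype Pparg(fl/?), which carry floxed Pparg but no cre. The cre transgene is active in the nephric duct and in the epithelia derived from it, including the ureteric epithelium. loxP sites flank exons 2 and 3. Array 1 held female and array 2 male pools, 1 pool of each genotype per array, and the dyes were exchanged between the arrays. The comparison asked which transcripts change in the ureter when its epithelium loses Pparg, a nuclear receptor.

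Signed values below carry no genotype. By the dye labels, the RNA labelled with AlexaFluor647 (red) on array 1 and AlexaFluor555 (green) on array 2 was the control, whereas the direction that the study uses would make it the Pparg-cKO. It is called RNA A here, and the other RNA is called RNA B. A ratio is the log2 of RNA A over RNA B throughout. The probe for Pparg itself (mm9, chr6:115440213-115440272) gave processed signals of 11295 (RNA A) and 7429.8 (RNA B) with the female pools, and of 12888 and 7872 with the male pools. The position of this probe relative to the floxed exons was not determined, so it does not settle the direction. The uroplakins, which are integral membrane proteins of the urothelium, favoured RNA B both times in 5 of 5 genes. In sections of fetal ureters, the study reported less Upk1a and Upk3b RNA in the Pparg-cKO. Since array 1 held the female and array 2 the male pools, array 1 is also referred to by the female pools and array 2 by the male pools. Sex was exchanged along with the dye, and their effects on a ratio cannot be told apart. Both arrays lay on 1 slide read in 1 scan. With 2 arrays, an exact two-sided sign-flip test cannot reach a p below 0.5 for any gene. In RNA of whole ureters, fewer cells of a type and less RNA per cell cannot be told apart.

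The probes on which the results below turn are oligonucleotides of 60 bases on the array, read 5′ to 3′, with positions in mm9. They are shown because the reading of Hoxa3, Hoxb3 and Hoxd11 depended on which of their probes was taken (for Hoxb3, the first is shown), because Hoxb8 and Hoxd13 had the lowest ratios of their positions on array 1, and because Hoxb13 stands for the genes without signal. The first Hoxa3 probe (chr6:52119087-52119146, minus strand) and the probe of the antisense RNA Hoxaas2 (chr6:52119107-52119166, plus strand) were complementary over 40 bases, which are in capitals. The second Hoxa3 probe lay at chr6:52149150-52149208, between the probes of Hoxa4 and Hoxa5.
Hoxa3, first probe: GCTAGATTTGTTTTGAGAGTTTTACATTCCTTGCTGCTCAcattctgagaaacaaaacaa
Hoxaas2: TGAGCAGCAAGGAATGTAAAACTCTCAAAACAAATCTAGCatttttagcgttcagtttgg
Hoxa3, second probe: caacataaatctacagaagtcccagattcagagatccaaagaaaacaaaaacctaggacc
Hoxb3, first probe (chr11:96209002-96209061): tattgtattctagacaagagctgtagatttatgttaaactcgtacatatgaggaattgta
Hoxd11, first probe (chr2:74525014-74525073): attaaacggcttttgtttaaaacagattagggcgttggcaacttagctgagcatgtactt
Hoxd11, second probe (chr2:74522136-74522195): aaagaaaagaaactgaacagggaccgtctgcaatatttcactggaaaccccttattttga
Hoxb8 (chr11:96146576-96146635): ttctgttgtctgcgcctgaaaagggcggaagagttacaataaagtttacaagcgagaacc
Hoxd13 (chr2:74509248-74509307): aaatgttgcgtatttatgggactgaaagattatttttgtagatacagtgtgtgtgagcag
Hoxb13 (chr11:96057854-96057913): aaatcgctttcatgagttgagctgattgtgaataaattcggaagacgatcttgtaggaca

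The second Hoxb3 probe was the only one of the 45 that the file also listed with a transcript of another gene, Hoxd3, its paralogue. Among 984 pairs of probes of different Hox genes, the longest exact run of bases in common was 11. The probes were compared only with each other, so this does not show that each is specific to its gene. Their match to transcripts of other Hox genes was not tested. The probes of the detected Hox genes had a median GC content of 38.3%, ranging from 30% to 55%, against a median of 41.7% for all detected genes.

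Signal from Hox genes of all 4 clusters was found in RNA of the E16.5 ureter. Of the 39 genes, 34 were detected, that is well above background in both RNAs on both arrays, which was 87.2% of the Hox genes beside 68.8% of all 29982 genes. All 11 HoxA genes and all 9 HoxD genes were detected, along with 8 of 10 HoxB and 6 of 9 HoxC genes. Of the detected genes, 27 reached a signal of at least 100 in all 4 channels. Signals of different probes are not on a common scale, so each is compared only with itself or with the background.

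The 5 genes outside this class lay at the ends of HoxB and HoxC, with the exception of Hoxc8. Hoxb13 and Hoxc12 were not well above background in any channel, with signals between 0.841 and 2.01 for Hoxb13 and between 1.36 and 2.23 for Hoxc12. Both are posterior genes, and Hoxb13 is known for its expression in the tail bud, hindgut and prostate. Hoxc13, a gene of hair and nail formation, passed in RNA A of array 2 only, at a signal of 4.23. Hoxb1, a gene of the hindbrain, passed in RNA B of array 1 and in RNA A of array 2, at signals of 4.88 and 7.70. Hoxc8, which patterns the thorax, gave 8.40 (RNA A) and 14.7 (RNA B) with the female pools, and 12.5 and 13.3 with the male pools. RNA A of array 1 was the only channel in which the Hoxc8 probe was not well above background.

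**Figure D1:**
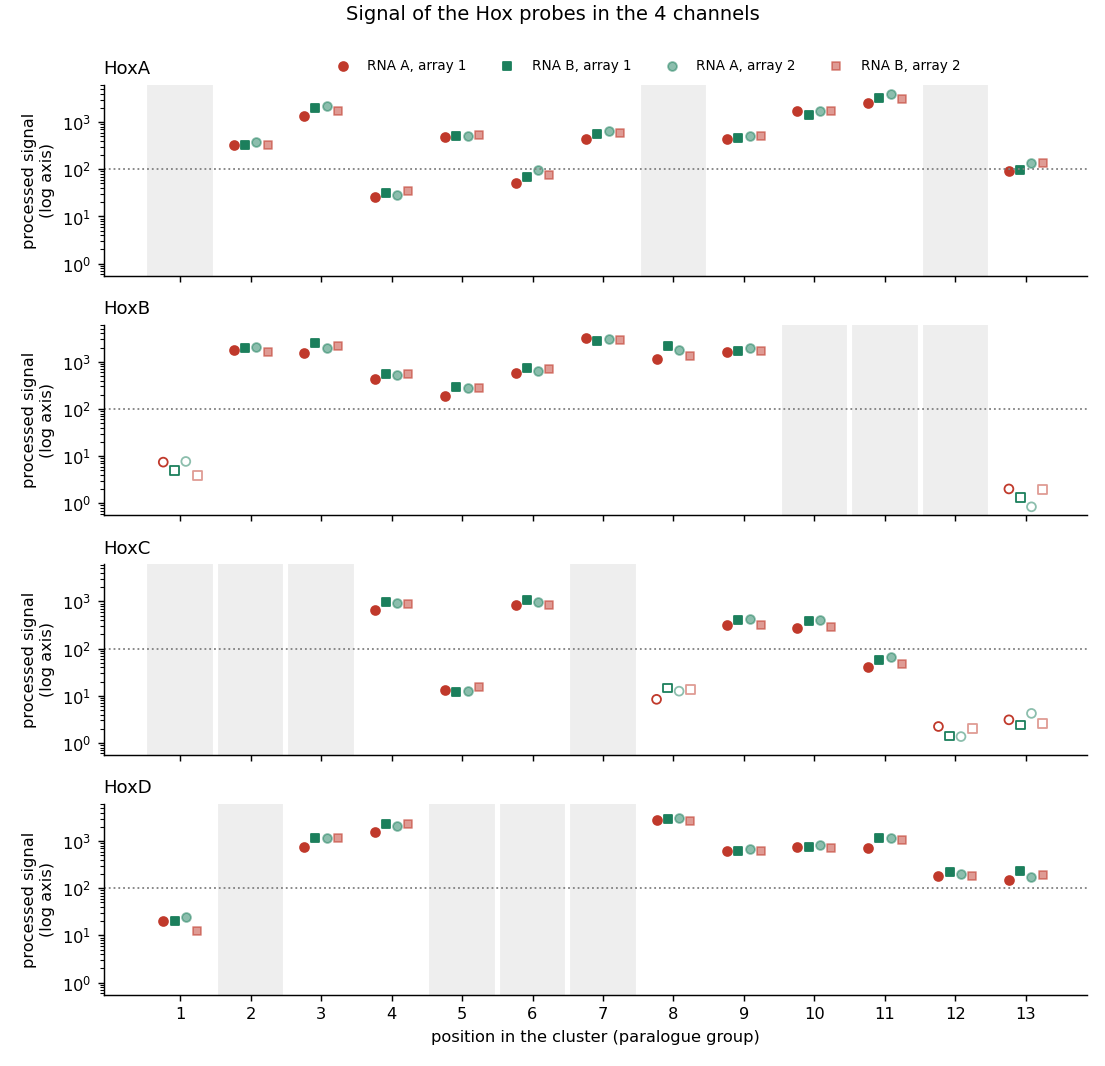
Processed signal (log axis) of the probe of 38 Hox genes against its position in the cluster, 1 panel per cluster. Circles are RNA A and squares RNA B, full colour array 1 and pale colour array 2, red and green the dye. Hollow symbols mark the 5 genes not detected in all 4 channels, grey columns positions with no gene drawn, and the dotted line a signal of 100. Channels of 1 gene lie close together, whereas HoxB and HoxC drop to the background at position 13.

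At the posterior end, the clusters differed in which genes were detected. HoxA and HoxD were detected up to position 13, HoxC up to position 11 and HoxB up to position 9, its last gene before Hoxb13. Hoxa13 had signals of 92.8 (RNA A) and 96.5 (RNA B) with the female pools, and of 133 and 139 with the male pools. Hoxd13 gave 146 and 236 with the female pools, and 176 and 189.5 with the male pools. Both genes are known from the distal limb and the genital tubercle. Hoxa13 and Hoxd13 were above background in every channel, as were Isl1 and Foxa1, the other members of a list of 4 cloacal and genital tubercle markers. The summed signal of that list was 7583 (RNA A) and 11568 (RNA B) with the female pools, and 10659 and 9323 with the male pools. Foxa1, which is also known from the urothelium, made up most of these sums, with 7044 and 10913 with the female pools and 10032 and 8712 with the male pools, whereas Hoxa13 and Hoxd13 favoured RNA B both times. The part of tissue next to the ureter in the group 13 signals was not tested.

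No Hox gene was changed in the same direction on both arrays by the criterion of the study, taken as a 1.5-fold difference with the brighter RNA at a signal of 100 or more. The count was 0 for genes brighter in RNA A, beside 0.157% of all genes (47 of 29982), and 0 for genes brighter in RNA B, beside 0.23% (69 of 29982). It was also 0 for genes past 1.5-fold in opposite directions, beside 0.43% (129 of 29982). limma called 0 of the 35 Hox genes it tested, beside 0.313% of all tested genes (67 of 21429). All Hox adjusted p-values were at least 0.9999. The count at an unadjusted limma p under 0.05 was also 0, beside 810 of all 21429 tested genes. That share also stands beside the unadjusted counts of the lists below. With 1 residual degree of freedom per gene, these counts do not show that Hox levels were equal in the RNAs.

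On single arrays, differences were seen that the other array did not repeat. On array 1, 7 Hox genes were at least 1.5-fold brighter in RNA B at a signal of at least 100, beside 2.12% of all genes (637 of 29982), and 0 in RNA A, beside 1.07%. They were Hoxb3, Hoxb5, Hoxb8, Hoxd3, Hoxd4, Hoxd11 and Hoxd13, which all belong to HoxB or HoxD. This restriction rests on the cutoff, a log2 ratio of 0.585. Hoxd3 (-0.586) and Hoxd4 (-0.588) passed it narrowly. Hoxc4 (-0.550), Hoxa3 (-0.546) and Hoxc10 (-0.524), of the other clusters, fell short of it by little. On array 2, 0 Hox genes were brighter in RNA B by this measure, beside 1.63%. The ratios of all 7 genes on array 2 lay between -0.12 and 0.41 and did not reach 1.5-fold.

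Hoxb8 had the lowest ratio of the detected Hox genes on array 1. It belongs to the central part of HoxB and is known from the spinal cord and from blood progenitors. Its signal was 1131 (RNA A) and 2123 (RNA B) with the female pools, and 1737 and 1303 with the male pools. Its ratios were thus -0.91 and 0.41, with SDs over the spots of the probe of 0.023 and 0.039, and the mean was -0.25 ± 0.94 (SD, n = 2 arrays). RNA B was thus brighter in the female pools and RNA A in the male pools, each time the RNA in green.

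Hoxb3 and Hoxb5 are anterior HoxB genes with roles in the hindbrain and in the neck and thorax. Hoxb3 gave 1506 (RNA A) and 2485 (RNA B) with the female pools, and 1973 and 2115 with the male pools. Hoxb5 gave 187 and 295 with the female pools, and 273 and 279 with the male pools. For both genes RNA B was brighter on both arrays, but by little on array 2. The mean ratios were -0.41 ± 0.44 for Hoxb3 and -0.35 ± 0.44 for Hoxb5 (SD, n = 2 arrays).

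The HoxD genes Hoxd3 and Hoxd4 behaved alike. Hoxd3, the paralogue of Hoxb3, had signals of 757 and 1136 with the female pools and of 1148 and 1185 with the male pools, in RNA A and RNA B. Hoxd4 had signals of 1526 and 2293 with the female pools and of 2072 and 2259.6 with the male pools. Neither pair of channels on array 2 differed by more than 0.13 on the log2 scale. The mean ratios were -0.32 ± 0.38 for Hoxd3, -0.36 ± 0.33 for Hoxd4 and -0.40 ± 0.41 for Hoxd13 (SD, n = 2 arrays), and with those of Hoxb3 and Hoxb5 they were the 5 lowest means among the detected genes.

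Hoxd1, Hoxb2, Hoxb7 and Hoxd8 were among the genes with the 5 highest means. Hoxd1, the most anterior member of its cluster, was dim, with 20.2 (RNA A) and 20.4 (RNA B) with the female pools, and 24.2 and 12.2 with the male pools. The difference came from array 2 only, and the mean ratio was 0.48 ± 0.71 (SD, n = 2 arrays). With another background correction and scaling, the mean was 0.20.

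Hoxb7, whose promoter is widely used to drive transgenes in the nephric duct and ureteric bud, gave 3167 (RNA A) and 2750.3 (RNA B) with the female pools, and 2989.9 and 2917 with the male pools. It was 1 of 3 detected Hox genes that favoured RNA A both times, with a mean ratio of 0.12 ± 0.12 (SD, n = 2 arrays). Hoxb2, with signals of 1779 and 1929 with the female pools and of 2101 and 1629 with the male pools, and Hoxd8, with 2843 and 2886 with the female pools and 3127 and 2651 with the male pools, were brighter in green on both arrays. Their mean ratios were 0.13 ± 0.34 and 0.11 ± 0.18 (SD, n = 2 arrays).

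The remaining 10 detected genes, at positions 2 to 7, had ratios between -0.55 (Hoxc4) and 0.075 (Hoxc5) on array 1 and between -0.30 (Hoxa4) and 0.40 (Hoxa6) on array 2, all below 1.5-fold. Hoxa5, a gene of lung and thoracic development, was the steadiest of them between the arrays, with 475 (RNA A) and 514 (RNA B) with the female pools, and 513 and 542 with the male pools. Hoxa6 gave 51.3 and 69.9 with the female pools, and 98.5 and 74.8 with the male pools, and so exceeded its spot SDs of 0.12 and 0.11 in opposite directions. Hoxa4 and Hoxc5 were dim, with 26.0 to 34.7 over the channels of Hoxa4 and 12.3 to 15.1 over those of Hoxc5.

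**Figure D2:**
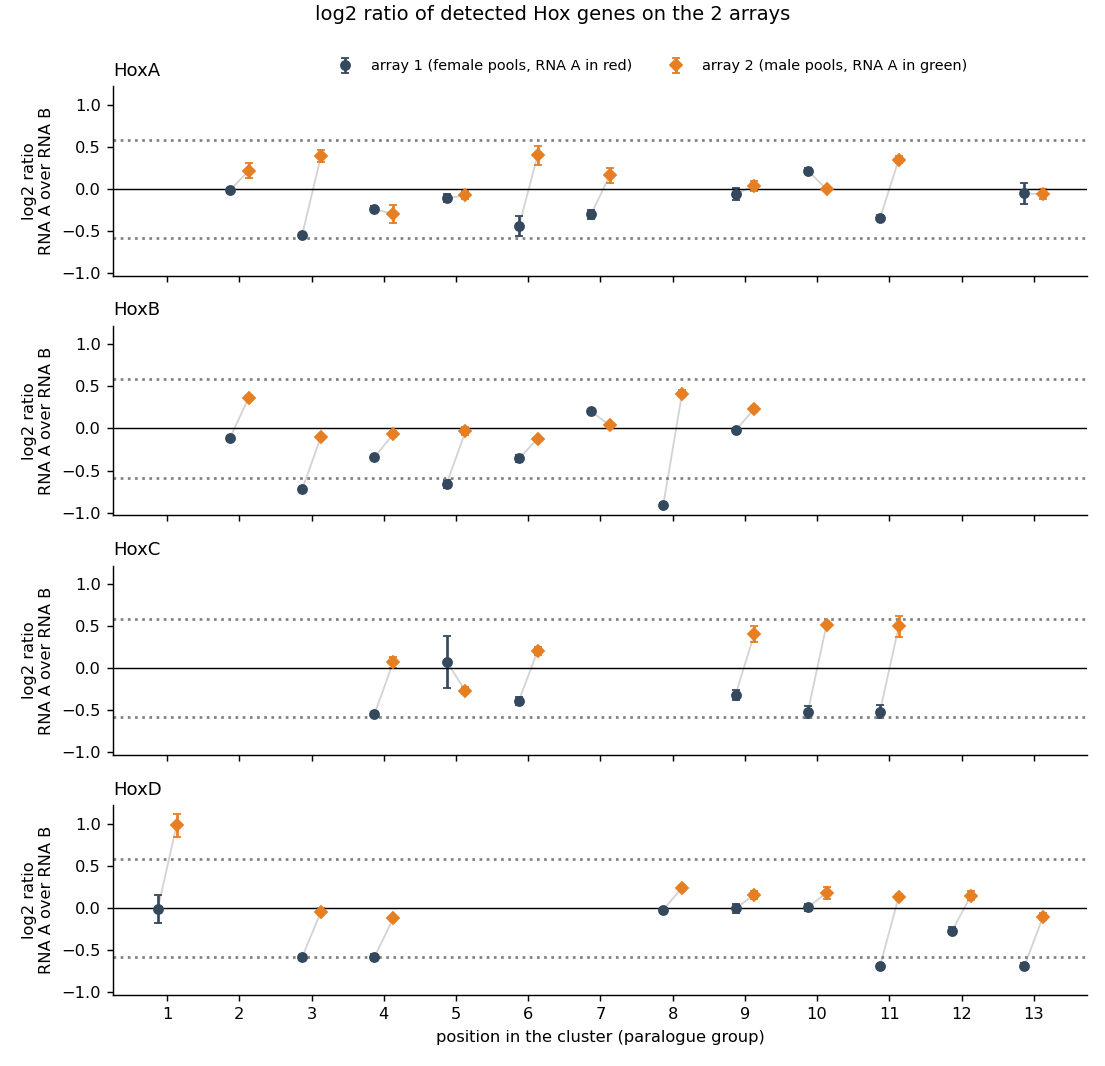
log2 ratio of RNA A over RNA B of 33 detected Hox genes on array 1 (dark circles) and array 2 (orange diamonds) against position, 1 panel per cluster. Bars are SDs over the spots of the probe and dotted lines mark 1.5-fold. Most circles lie below 0, down to -0.91 for Hoxb8, whereas most diamonds lie at or above 0.

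The direction of the small differences was not the same on the arrays. On array 1, 29 of the 34 detected Hox genes were brighter in RNA B, beside 49.7% of all 20615 detected genes. On array 2, 22 of 34 were brighter in RNA A, beside 53.9%. The median Hox ratio was -0.31 on array 1 and 0.15 on array 2, beside 0.00202 and 0.0231 for all detected genes, and the median of the mean ratios was -0.061 beside 0.00638. The ratio exceeded 2 SDs of the probe's spots for 24 of the 34 genes on each array. Spots are repeats within an array, and the share of all genes past this limit was not counted.

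By pattern, 19 of 34 Hox genes were brighter both times in the green channel, beside 32.6% of all detected genes, and 2 (Hoxa10 and Hoxc5) in the red channel both times, beside 29.0%. RNA B was brighter on both arrays for 10 (Hoxa4, Hoxa5, Hoxa13, Hoxb3, Hoxb4, Hoxb5, Hoxb6, Hoxd3, Hoxd4 and Hoxd13), beside 17.1%. RNA A was brighter on both arrays for 3, among them Hoxb7 and Hoxd10, beside 21.3%. These counts use the sign of the ratio alone, whatever its size. Hoxd10 had a ratio of 0.0048 on array 1 (spot SD 0.043), and Hoxa13 stayed within 2 spot SDs on both arrays. Of the 19 green genes, 11 passed 2 spot SDs on each array. The second probes of Hoxa3 and Hoxa9 favoured RNA B both times. With the mean over all probes, 12 genes favoured RNA B both times. The shares were thus away from those of all genes towards green and towards RNA B, but the members lie in a few clusters and are not independent, and no test was made of them. A part of dye or of sex in the green pattern was not tested.

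**Figure D3:**
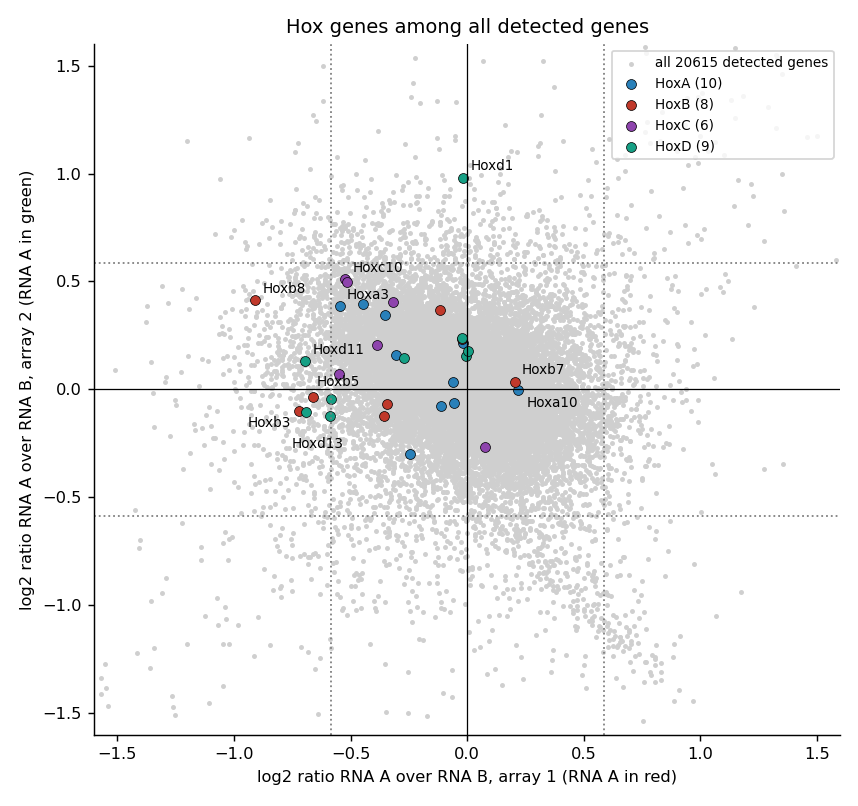
log2 ratio of RNA A over RNA B on array 1 (x axis) against array 2 (y axis) for 33 detected Hox genes, coloured by cluster, over all 20615 detected genes in grey. Dotted lines mark 1.5-fold, and 71 genes beyond ±1.6 are not drawn. No Hox gene lies past 1.5-fold on both axes, and 19 lie in the upper left quadrant, where the green channel was brighter on both arrays.

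The genes were also read by position, and no test compared the positions. At positions 3 to 6, RNA B was brighter on both arrays for 8 of 13 detected genes, beside 17.1% of all detected genes. The median ratio there was -0.45 on array 1 and -0.069 on array 2. At positions 7 to 9, 7 of 8 detected genes were brighter in green on both arrays, beside 32.6%, with medians of -0.043 and 0.20. Of these, Hoxa9, Hoxb9, Hoxd8 and Hoxd9 were within 2 SDs of their spots on array 1. Positions 10 to 13 held 5 of 9 genes brighter in green both times, beside the same 32.6%, with medians of -0.35 and 0.14.

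By cluster, the median ratio on array 1 was below 0 in each, at -0.11 for HoxA, -0.35 for HoxB, -0.45 for HoxC and -0.27 for HoxD. On array 2 it was 0.16, 0.000126, 0.30 and 0.14. HoxC thus showed the widest swing between the arrays and HoxA the narrowest. Over both arrays the medians of the mean ratios were -0.025 for HoxA, -0.22 for HoxB, -0.051 for HoxC and -0.063 for HoxD.

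The posterior paralogue groups were followed gene by gene. Group 9 was detected in all 4 clusters, and the brightest probes of all 4 genes were brighter in green on both arrays. In Hoxa9 this was by less than 2 SDs of its spots on each array, and in Hoxb9 and Hoxd9 on array 1. Hoxa9 gave 431 (RNA A) and 449.9 (RNA B) with the female pools, and 507 and 496 with the male pools. Hoxb9 gave 1638 and 1666 with the female pools, and 1998 and 1700.2 with the male pools. These 2 genes and Hoxd9, with 602 and 604 with the female pools and 689 and 618 with the male pools, had array 1 ratios between -0.062 and -0.0064. Hoxc9 moved further, with 318 and 397 with the female pools and 422 and 319 with the male pools.

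In group 10, Hoxa10 was brighter in RNA A on array 1 (1679.5 against 1445) and about equal on array 2 (1733 against 1739). Hoxd10 gave 755 and 753 with the female pools, and 817 and 722 with the male pools. These genes act with group 11 in the limb, the vertebral column and the kidney stroma, and Hoxa10 also in the genital ducts. Hoxc10 gave 269 (RNA A) and 387 (RNA B) with the female pools, and 408 and 286 with the male pools. Its ratios of -0.52 and 0.51 nearly cancelled, with a mean of -0.0058 ± 0.73 (SD, n = 2 arrays).

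All group 11 genes were detected, and all 3 were brighter in green on both arrays. Hoxa11 gave 2561 (RNA A) and 3267 (RNA B) with the female pools, and 3966 and 3122 with the male pools, with a mean ratio of -0.0028 ± 0.49 (SD, n = 2 arrays). Hoxc11 was below 100 throughout, at 40.6 and 58.1 with the female pools and at 66.0 and 46.8 with the male pools, with a mean of -0.011 ± 0.72 (SD, n = 2 arrays). Hoxd11 gave 726 and 1174 with the female pools, and 1177 and 1074 with the male pools, with a mean of -0.28 ± 0.58 (SD, n = 2 arrays). The group 11 ratios were between -0.69 and -0.35 on array 1 and between 0.13 and 0.50 on array 2. In group 12, Hoxd12 gave 183 and 220.2 with the female pools, and 202 and 183.1 with the male pools. In group 13, Hoxa13 had ratios of -0.056 and -0.064, with SDs over its spots of 0.13 and 0.059, and Hoxd13 had ratios of -0.69 and -0.10.

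For 5 of the 6 genes with 2 probes, both probes were detected and could be compared on the same arrays. The pairs differed most for Hoxa3, an anterior gene known from the thymus, thyroid and carotid body. The first Hoxa3 probe gave 1373 (RNA A) and 2004 (RNA B) with the female pools, and 2199 and 1684 with the male pools. Its second probe gave 213 and 306 with the female pools, and 242 and 383 with the male pools. The probes were alike on array 1, with ratios of -0.55 and -0.52, and opposite on array 2, with ratios of 0.38 and -0.66, a difference of 1.05 beside a combined spot SD of 0.082. The second probe was thus brighter in RNA B on both arrays, past 1.5-fold on array 2 but not on array 1, while the first probe followed the green channel. The Hoxaas2 probe, complementary to the first Hoxa3 probe over the capital letters above, gave 187 and 232 with the female pools, and 216 and 192 with the male pools, also brighter in green both times.

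For Hoxb3, the second probe, the one also listed with Hoxd3, gave 331 (RNA A) and 427 (RNA B) with the female pools, and 410.4 and 487 with the male pools. Its ratios of -0.37 and -0.25 had the same sign as the -0.72 and -0.10 of the first probe, but it did not reach 1.5-fold on array 1. The second Hoxd11 probe gave 519 and 549.9 with the female pools, and 569.9 and 513 with the male pools. Its ratio on array 1 was -0.084, against -0.69 for the first probe, whereas on array 2 the probes gave 0.15 and 0.13. Of the 7 genes past 1.5-fold on array 1, Hoxb3 and Hoxd11 were the only ones with a second probe, and neither second probe was past 1.5-fold.

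The pairs of Hoxa9 and Hoxa13 were closer on array 1. The second Hoxa9 probe gave 306 and 319 with the female pools, and 359 and 449.2 with the male pools, and its ratio of -0.32 on array 2 lay opposite to the 0.033 of the first probe, a difference of 0.355 beside a combined spot SD of 0.063. Like that of Hoxa3, the second Hoxa9 probe thus favoured RNA B both times, where the first followed the green channel. The second Hoxa13 probe gave 77.8 and 82.1 with the female pools, and 104 and 120.1 with the male pools. On both arrays, both Hoxa13 probes were brighter in RNA B by less than 1.5-fold.

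**Figure D4:**
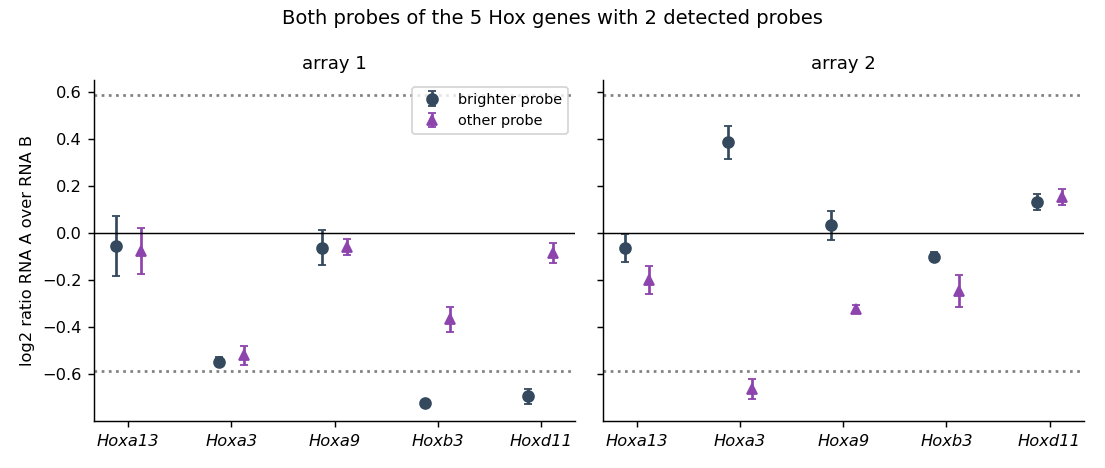
log2 ratio of RNA A over RNA B of the brighter probe (circles) and the other probe (triangles) of the 5 Hox genes with 2 detected probes, on array 1 (left) and array 2 (right). Bars are SDs over the spots of a probe and dotted lines mark 1.5-fold. The probes of Hoxd11 part on array 1 (-0.69 and -0.084) and those of Hoxa3 on array 2 (0.38 and -0.66).

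Transcripts other than the Hox genes arise from the clusters, many of them antisense. Of a list of 11 such RNAs, 7 had values, 6 were detected and limma called 0, with Hoxaas3 the only 1 at an unadjusted p under 0.05. It gave 34.8 (RNA A) and 65.9 (RNA B) with the female pools, and 57.3 and 64.6 with the male pools. Hoxb5os gave 600.4 and 582 with the female pools, and 647 and 403 with the male pools. Hoxa11os, on the strand opposite to Hoxa11, gave 1151 and 1274 with the female pools, and 1583 and 1266 with the male pools, in the same pattern as Hoxa11. Haglr, a long RNA of the HoxD cluster, gave 647 and 459 with the female pools and 463 and 672 with the male pools, and was brighter in red both times. Hottip, transcribed from the end of HoxA next to Hoxa13, was not detected.

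HOX proteins bind DNA together with TALE homeodomain cofactors of the PBX, MEIS and PREP (Pknox) families. All 9 cofactor genes listed were detected, and limma called 0, with 0 at an unadjusted p under 0.05. Meis1 gave 9939 (RNA A) and 13524 (RNA B) with the female pools, and 14860.4 and 11073 with the male pools. The cofactors were brighter in green on both arrays for 6 of 9 genes and in RNA B for 3, with medians of -0.32 on array 1 and 0.19 on array 2. These medians were close to those of the Hox genes, so the swing between arrays was seen outside the clusters as well.

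Polycomb and Trithorax group proteins keep Hox genes silent or active. Of 23 such chromatin regulators, 22 were detected, and limma called 0 with 0 at an unadjusted p under 0.05. They were brighter in green on both arrays for 14 of 22, with medians of -0.21 and 0.062. Ezh2, the methyltransferase of a Polycomb repressive complex, gave 3201 (RNA A) and 3876 (RNA B) with the female pools, and 3884 and 3714 with the male pools. Kmt2a, a Trithorax-type activator, was dim, at 12.6 and 14.8 with the female pools and at 13.3 and 15.3 with the male pools.

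Retinoic acid and CDX factors are inputs to Hox expression. Of 19 genes of this kind, 14 were detected and limma called 0, with 0 at an unadjusted p under 0.05. The receptor genes Rara, Rarb and Rarg were brighter in green on both arrays, for instance Rarg with 2509 (RNA A) and 3503 (RNA B) with the female pools, and 4136 and 3326 with the male pools. Among the detected genes of the list, Rxrg showed the widest swing, in the other direction, with 7557.5 and 5448 with the female pools and 3921 and 7973 with the male pools. Cdx1, Cdx2, Cdx4, Gbx2 and Cyp26c1 were not detected in all channels. The list had medians of -0.12 on array 1 and 0.28 on array 2.

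HOX11 proteins act with EYA1 and PAX2 to switch on Six2 and Gdnf in nephron progenitors. All 10 partners and targets listed were detected, and limma called 0, with 0 at an unadjusted p under 0.05. Eya1 gave 6765 (RNA A) and 6702 (RNA B) with the female pools, and 5502 and 7619.8 with the male pools. Six2 gave 1107 and 1461 with the female pools, and 839.6 and 765 with the male pools, and Gdnf 249.9 and 264 with the female pools, and 182 and 182 with the male pools. The medians of the list were -0.090 on array 1 and 0.099 on array 2.

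**Figure D5:**
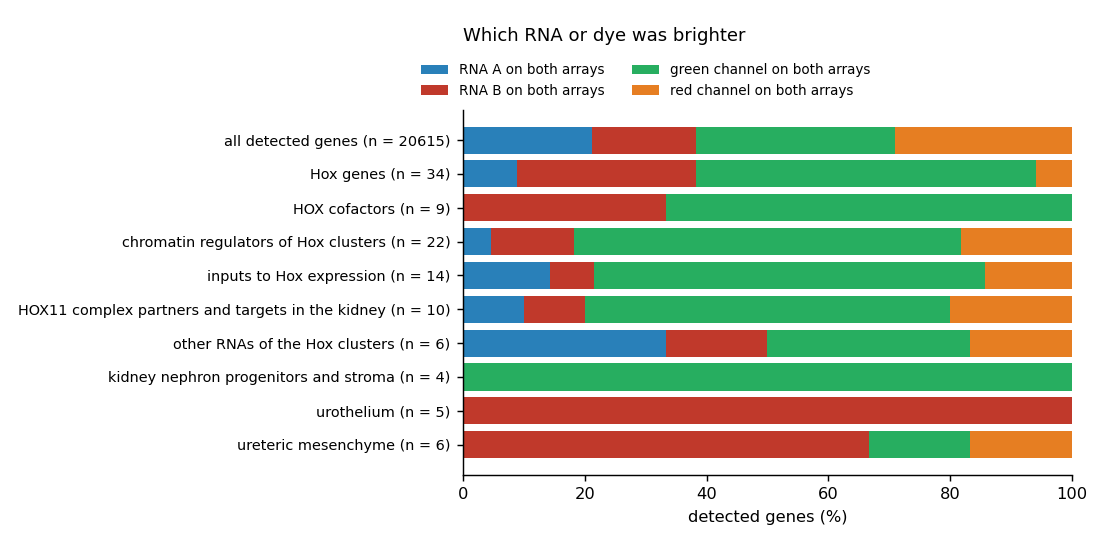
Share of the detected genes of each list (x axis, percent) that favoured RNA A on both arrays, RNA B on both, the green channel on both or the red channel on both. The green share was 19 of 34 in the Hox genes, 6 of 9 in the cofactors and 14 of 22 in the chromatin regulators, beside 32.6% of all detected genes, whereas all 5 uroplakins were brighter in RNA B.

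Markers of the tissues that a dissected ureter can hold were read beside the Hox genes. Markers of the ureter were present: all 5 pan-epithelial, all 5 urothelial and all 6 ureteric mesenchyme genes were detected. The summed urothelial signal was 50601 (RNA A) and 81946 (RNA B) with the female pools, and 48895 and 85891 with the male pools. The summed mesenchymal signal was 75871 and 93360.1 with the female pools, and 70637 and 116636 with the male pools. Acta2 and Tagln, genes of smooth muscle, made up most of the mesenchymal sums. Gene by gene, RNA B was brighter on both arrays for 5 of 5 urothelial and 4 of 6 mesenchymal genes, while Tshz3 was brighter in green and Tbx18 in red both times. All 4 markers of nephron progenitors and kidney stroma (Six2, Cited1, Meox1 and Foxd1) were detected and were brighter in green on both arrays, beside 32.6% of all detected genes. Their summed signal was 8062 (RNA A) and 9910.0 (RNA B) with the female pools, and 9005 and 7515 with the male pools. Of the 5 nephron markers 1 (Lhx1) was detected in all channels. Slc34a1, a phosphate transporter of the proximal tubule, gave 6.203 (RNA A) and 30.8 (RNA B) with the female pools, and 4.197 and 37.2 with the male pools, and was called by limma (mean ratio -2.73 ± 0.59, SD, n = 2 arrays, adjusted p = 0.0122). Umod and Nphs1 were not well above background in enough channels to be tested. Gonad and adrenal markers were detected for 4 of 5 genes, with Amh not detected, and genital duct markers for 4 of 4. Endothelial markers were detected for 3 of 3 genes, neural crest and neuronal for 4 of 4 and skeletal muscle for 3 of 3 with values. Of all genes, 68.8% were detected, so these counts alone do not show that a tissue was present. Cyp11a1 and Star were dim, at 12.5 to 18.8 and 8.46 to 15.1 over the channels. Cyp17a1 and Nr5a1 gave 49.5 to 53.9 and 66.8 to 130.8. The summed skeletal muscle signal was 861 and 1042 with the female pools, and 563 and 510.2 with the male pools. The part of these tissues in the Hox ratios was not tested.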

How the data were processed

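RNA of pooled ureters was hybridised to 2 dual-colour Agilent arrays, with female pools on array 1 and male pools on array 2. E14.5 is given as the stage of the second channel, whereas titles and protocols give E16.5. Per the file headers and the submitters' processing notes, Agilent Feature Extraction 10.7.3.1 produced the deposited intensities, which were background-subtracted, set to surrogate values near background and dye-normalised by LOWESS within each array, so that the ratios of dim probes depend on these steps. The deposited log10 ratio served to check the dyes. The deposited mean and background intensities and the authors' signed fold-change score served as alternatives. The score followed RNA A over RNA B (Pearson r with the ratios 0.997 on each array over 18540 probes). Its samples are titled Pparg-cKO vs control, in conflict with the dye labels. The deposited flags removed 5705 and 5579 outlier spots and are otherwise of no unit. No depth applies to arrays, and their number limits the precision.

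log2 processed signals were averaged over the kept spots of a probe, usually 4. A gene was represented by its brightest probe, and was detected where at least 0.5 of the spots were well above background in all 4 channels. Positions are those of the files (mm9), and 28328 of 39429 probes were named through RefSeq (GRCm38.p6). limma 3.58.1 in R 4.3.3 (lmFit with an intercept, eBayes) was fitted on 21429 genes above background in at least 1 RNA on both arrays, with Benjamini-Hochberg adjustment at 0.05. It was tested on simulated data. The Hox genes, the lists, the markers and the rule for named genes were chosen with earlier results of these data known. Values were given for genes past 1.5-fold on an array, the 5 highest and 5 lowest means, genes with 2 detected probes, positions 9 to 13 and undetected genes. Other genes were taken from the fixed lists. Alternatives were normexp (offset 50) with loess, loess, centring, the deposited table, other rules for probes, spots, signal and fold, and leaving out each array. Plots were drawn with matplotlib 3.10.9. Results on some genes and the sequence of a probe are not reported here.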

Additional observations from a re-analysis of the deposited data

Results flagged for a closer look

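In 11 detected Hox genes, the RNA A over RNA B ratio went below 0 on the array of female pools and above 0 on the array of male pools, on each array by more than 2 SDs of the probe's spots. The ratio on array 1 minus that on array 2 was -0.931 for Hoxa3, -0.845 for Hoxa6, -0.697 for Hoxa11, -0.484 for Hoxb2, -1.32 for Hoxb8, -0.59 for Hoxc6, -0.722 for Hoxc9, -1.04 for Hoxc10, -1.01 for Hoxc11, -0.826 for Hoxd11 and -0.414 for Hoxd12. The median over the 34 detected Hox genes moved the same way, by -0.461. With 1 array of each sex, these differences were not tested. The share of all detected genes that met the same rule was not counted. The green channel was brighter both times in all 11 genes, and sex and dye cannot be told apart.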

How the results depend on the processing

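The count of detected Hox genes was 27 to 35 under the other criteria. The median ratio kept its sign under all other scalings, tables and filters, at -0.323 to -0.27 on array 1 and 0.12 to 0.166 on array 2. limma called 0 Hox genes under each alternative, with 1 at an unadjusted p under 0.05 without the filter on dim probes, whereas its calls over all genes went from 67 to between 0 and 70. With no signal threshold, or with well above background in its place, 1 Hox gene (Hoxb1, ratios 0.61 and 1.00) was past 1.5-fold in RNA A on both arrays. With no signal threshold 1 gene (Hoxb13, which was not well above background) was past it in opposite directions, and at 1.2-fold 5 genes were. Without the filter on dim probes, 5 Hox genes instead of 3 favoured RNA A both times. The mean of Hoxc11 turned sign, to 0.00189 with normexp and loess, 0.00762 in the deposited table and 0.0096 with outlier spots kept, and no other named mean did so under these settings. The mean of the dim gene Hoxd1 kept its sign but not its size. It was 0.198 with normexp and loess and 0.541 in the deposited table, beside 0.482.

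Leaving out a replicate leaves 1 array and no test. Then 0 to 1 Hox genes were brighter by 1.5-fold for RNA A and 0 to 7 for RNA B, and 5 to 22 detected genes favoured RNA A and 13 to 29 RNA B. Means that turned sign ranged from -0.546 to 0.385 for Hoxa3, -0.062 to 0.0328 for Hoxa9, -0.00498 to 0.217 for Hoxa10, -0.351 to 0.346 for Hoxa11, -0.116 to 0.368 for Hoxb2, -0.908 to 0.415 for Hoxb8, -0.024 to 0.233 for Hoxb9, -0.318 to 0.404 for Hoxc9, -0.524 to 0.512 for Hoxc10, -0.517 to 0.496 for Hoxc11, -0.0171 to 0.981 for Hoxd1, -0.0217 to 0.239 for Hoxd8, -0.00644 to 0.156 for Hoxd9, -0.694 to 0.132 for Hoxd11 and -0.27 to 0.144 for Hoxd12. Spot SDs reached 0.31 among detected genes (Hoxc5, array 1) and 0.85 among the others (Hoxc13 on array 1, Hoxc12 on array 2). Each ratio compares the RNAs of 1 array, so the limma test is already paired within arrays.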
